A study of Homo sapiens with 3 samples.

Results

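The MYC, MAX and MXD network was examined through 10 genes, MYC, MYCN, MYCL, MAX, MXD1, MXD3, MXD4, MXI1, MNT and MLX. Every probe set that the annotation of the HG-U133 Plus 2.0 array gives 1 of these symbols was taken, which gave 34 of the 54675 probe sets. Of these, 31 read 9 genes alone. The remaining 3 are annotated to MXD4 together with the microRNA gene MIR4800, so MXD4 has no value of its own here and is left out of the counts over the 9 genes. The arrays were hybridised with total RNA from 3 lines of C4-2B, a line that was established from LNCaP and models castration-resistant disease of the prostate. C4-2B MDVR cells had been cultured for a long time in enzalutamide, an androgen receptor antagonist, and were kept in 20 µM of it. C4-2B AbiR cells had been cultured for a long time in abiraterone, an inhibitor of androgen synthesis, and were kept in 10 µM abiraterone acetate. C4-2B parental cells received no drug and were passaged beside the sublines, per the methods of the study. Each line is represented by 1 array, each resistant line is a single subline, and both are set against the same parental array, so differences between lines carry no replicate error and no test was possible. In bulk RNA, fewer cells that express a gene and less of its RNA per cell cannot be told apart.

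MYC, MYCN and MYCL are transcription factors that bind DNA only as pairs with MAX, at a short motif called the E-box. MYC pairs drive genes for ribosomes, metabolism and cell division, and MYC is among the most often amplified oncogenes of advanced prostate cancer. MXD1, MXD3, MXD4, MXI1 (also called MXD2) and MNT compete for MAX, and their pairs bring SIN3 and histone deacetylases to the same motif and repress. MLX forms a parallel branch in which it pairs with the glucose sensors MLXIP and MLXIPL, and it also pairs with some of the MXD proteins and MNT. All of these members are read here as messenger RNA, and neither protein nor DNA binding was measured.

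The deposited values are log2 signals centred on 0 for each probe set. They hold differences between arrays and no level, so no gene could be ranked above another by abundance, and the prostate identity of the lines could not be checked by level. A gene value is the mean over its probe sets, given with the SD between probe sets, which is a technical spread and not an error between cultures. The 45 probe sets for spiked bacterial transcripts, which should read alike on every array, set a scale of noise. Against the parental array their log2 differences had an SD of 0.13 for MDVR cells and 0.10 for AbiR cells, with a largest size of 0.35 (1.27-fold) and 0.20 (1.15-fold). Between the MDVR and AbiR arrays the SD was 0.12 and the largest size 0.34 (1.27-fold). Differences of the members inside these bounds are no larger than those of transcripts added in fixed amounts.

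Few members of the network differed between the lines by 1.5-fold or more. In C4-2B MDVR against parental cells 1 of the 9 genes, MXI1, was at least 1.5-fold higher and none was lower, while 4.81% of all 19775 genes were that much higher and 5.15% that much lower. For C4-2B AbiR against parental cells the count was 0 both ways, beside 3.32% of all genes higher and 2.52% lower. Between the resistant lines 1 gene, MYC, was at least 1.5-fold higher in MDVR and none was lower, beside 2.77% and 3.96% of all genes. MYC was also the only 1 of the 9 past 2-fold in any comparison, in MDVR minus AbiR, where 2.01% of all genes were past 2-fold either way. The corresponding shares of all genes were 3.33% in MDVR minus parental and 1.88% in AbiR minus parental, with 0 members in each. By single probe sets, 2 of the 34 were at least 1.5-fold apart in MDVR minus parental (5.88%, beside 11.0% of all probe sets), 1 in AbiR minus parental (2.94%, beside 7.13%) and 2 in MDVR minus AbiR (5.88%, beside 9.75%). The shares of probe sets past the threshold were below the background in all 3 comparisons. They rest on 2, 1 and 2 probe sets. Counts of 1, 0 and 1 of the 9 genes are also too small to set apart from the shares of all genes. The median difference over the 9 genes was 0.08 in MDVR minus parental, -0.04 in AbiR minus parental and 0.04 in MDVR minus AbiR, against 0.04, -0.01 and 0.05 over all genes. In the same 3 comparisons 25, 20 and 25 of the 34 probe sets lay within the largest difference of the spiked controls. The share of all probe sets within these bounds was not counted, so these counts have no background. By the medians over the 9 genes the network was close to the average gene.

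**Figure D1:**
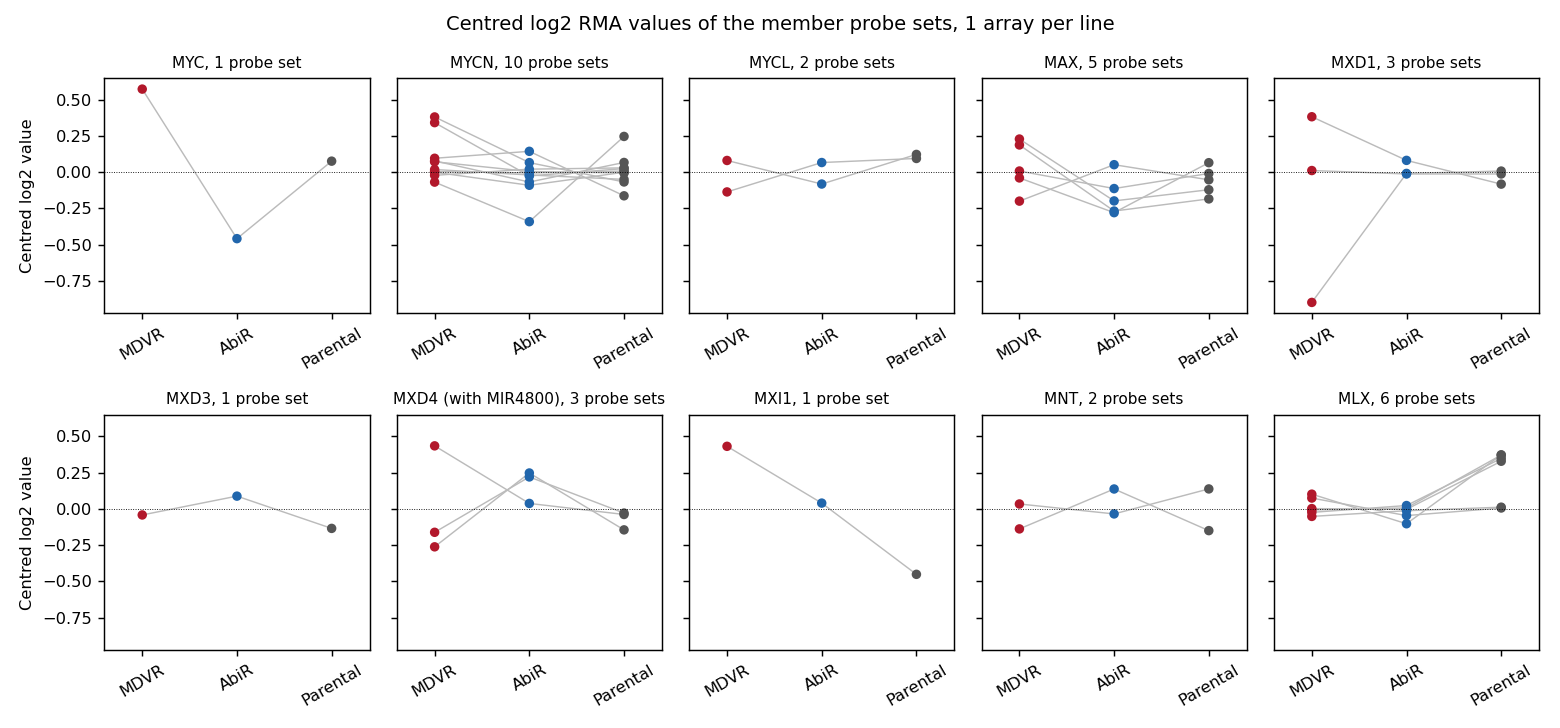
Centred log2 values of the 34 probe sets of the 10 members on the MDVR, AbiR and C4-2B parental arrays, 1 point per probe set. MYC was highest in MDVR and lowest in AbiR, MXI1 was lowest in parental cells, and 5 of the 6 MLX probe sets were highest in parental cells.

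MYC lay on opposite sides of parental cells in the resistant lines. Its only probe set (202431_s_at) had a centred log2 value of 0.57 in MDVR cells and -0.46 in C4-2B AbiR cells, against 0.08 in parental cells. The parental value lay almost midway between those of the resistant lines. MYC was therefore 1.41-fold higher in MDVR than in parental cells (log2 difference 0.50) and 1.45-fold lower in AbiR than in parental cells (-0.53), and both differences were past the largest of the spiked controls. Neither reached 1.5-fold. The resistant lines differed from each other by 2.04-fold, higher in MDVR (1.03), and only 0.85% of all genes had a larger difference in that direction. For MDVR against parental cells 6.41% of genes were further up, and for AbiR against parental cells 3.02% were further down. With 1 probe set there is no spread between probe sets for MYC, and its value rests on a single set of probes.

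The other MYC proteins are used mainly by other tissues, MYCN by the developing nervous system and by neuroendocrine tumours and MYCL by lung and dendritic cells. MYCN was read by 10 probe sets. Their mean difference was 0.08 ± 0.21 in MDVR minus parental and -0.04 ± 0.23 in AbiR minus parental (SD between 10 probe sets). The probe sets disagreed in sign, with 6 higher and 3 lower in MDVR and 4 higher and 6 lower in AbiR, and ranged from -0.32 to 0.45 and from -0.59 to 0.31. The MYCN probe set at the low end in AbiR (234298_at) was the 1 probe set of the network past 1.5-fold in that comparison, with centred values of -0.07 in MDVR and -0.34 in AbiR cells, against 0.25 in parental cells. Of the 10 MYCN probe sets, 8 were higher in MDVR than in AbiR cells, with a mean of 0.12 ± 0.15. MYCL was slightly lower in both resistant lines, by both of its probe sets, with -0.14 ± 0.13 in MDVR minus parental and -0.12 ± 0.12 in AbiR minus parental (SD, 2 probe sets). The MYCN means were smaller than the SD between its probe sets, and those of MYCL were within the largest difference of the spiked controls.

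MAX, the common partner of the MYC and MXD proteins, differed little. Its 5 probe sets averaged 0.10 ± 0.25 in MDVR minus parental and -0.10 ± 0.16 in AbiR minus parental (SD). In MDVR cells 3 MAX probe sets were higher and 2 lower than in parental cells, and in AbiR cells 1 was higher and 4 lower. A pair of MAX probe sets whose suffix (_x_at) marks probes that can bind other transcripts stood at 0.37 and 0.35 in MDVR minus parental, and the other 3 lay between -0.15 and 0.02. MAX was 0.20 ± 0.29 higher in MDVR than in AbiR cells, again less than the SD between its probe sets. All 3 MAX means were thus within the largest difference of the spiked controls.

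Among the antagonists, MXI1 had the largest difference from parental cells as a gene mean. MXI1 competes with MYC for MAX and is a repressor of MYC targets. Its 1 probe set (202364_at) had a centred value of 0.43 in C4-2B MDVR and 0.04 in C4-2B AbiR cells, against -0.45 in parental cells, so both resistant lines were above the parental line and MDVR above AbiR. MXI1 was 1.84-fold higher in MDVR than in parental cells (0.88), and 2.07% of all genes were further up. In AbiR it was 1.41-fold higher than in parental cells (0.49), with 4.52% of genes further up. The 2 resistant lines differed by 0.39, or 1.31-fold, higher in MDVR, a little past the largest difference of the spiked controls. MXI1, like MYC, was read by 1 probe set only.

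MXD1, an antagonist that is induced as cells stop dividing and differentiate, gave readings that conflict. In MDVR minus parental its 3 probe sets read 0.46 (206877_at), -0.91 (226275_at) and 0.02 (228846_at), a mean of -0.14 ± 0.70 (SD). The probe set 226275_at had centred values of -0.90 in MDVR and -0.01 in AbiR cells, against 0.01 in parental cells, and was 1.87-fold lower in MDVR than in parental cells. The probe set 206877_at pointed the other way, with 0.38 in MDVR and 0.08 in AbiR cells, against -0.08 in parental cells. Whether these probe sets read different transcripts of MXD1 was not tested, and the gene has no single direction in MDVR. In AbiR minus parental the same 3 probe sets lay between -0.02 and 0.16 (mean 0.05 ± 0.10).

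MXD3, an antagonist that is expressed in dividing cells, was read by 1 probe set with centred values of -0.04 in MDVR and 0.09 in AbiR cells, against -0.13 in parental cells. It was 0.09 higher in MDVR and 0.22 higher in AbiR than in parental cells, and the AbiR difference was just past the largest of the spiked controls. The 3 probe sets shared by MXD4 and MIR4800 were all higher in AbiR than in parental cells, by 0.39, 0.25 and 0.08 (mean 0.24 ± 0.16). In MDVR minus parental they read -0.12, -0.13 and 0.47 (mean 0.07 ± 0.35), so they had no common sign there. MNT, a MAX partner present in most cells whether they divide or rest, averaged -0.05 ± 0.08 in MDVR minus parental and 0.06 ± 0.33 in AbiR minus parental, and its 2 probe sets had opposite signs in AbiR, 0.29 and -0.17. Apart from MXI1, no antagonist was 1.5-fold different from parental cells as a gene mean, and the 226275_at probe set of MXD1 was the only single one of the others past that bound.

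**Figure D2:**
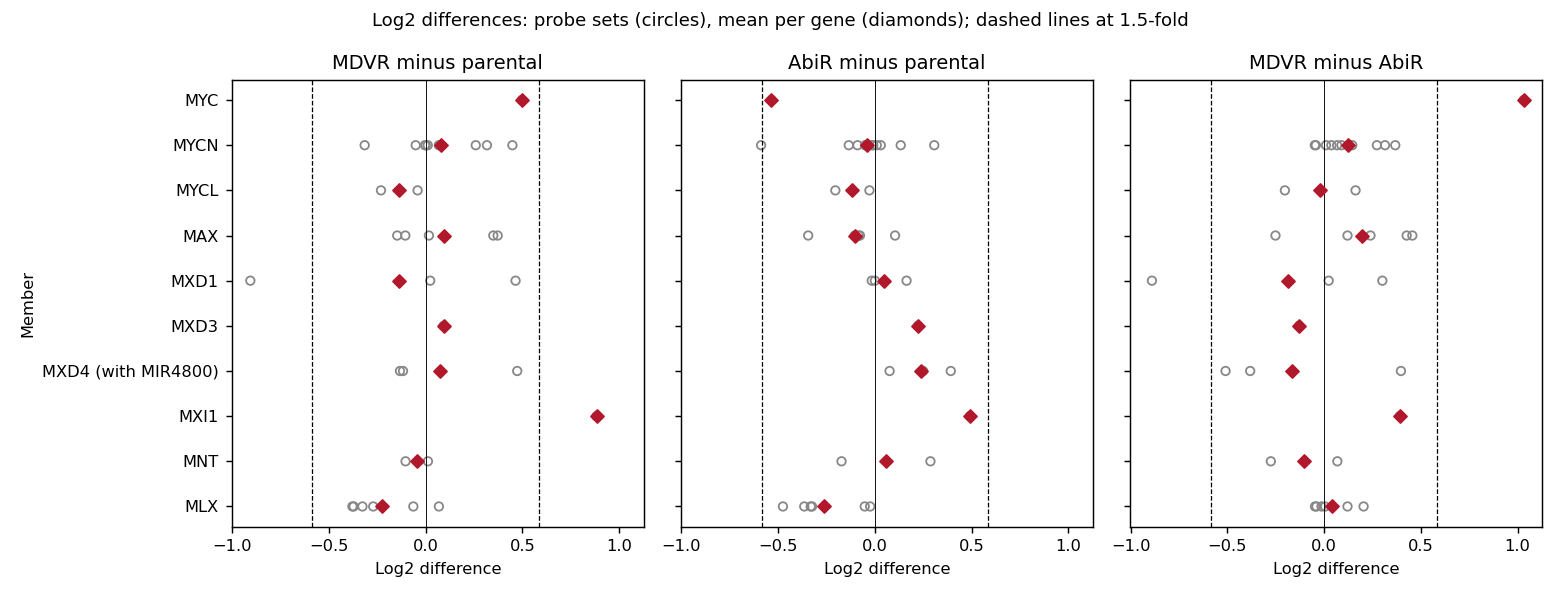
Log2 differences of each member, 1 panel for each resistant line against parental cells and 1 for MDVR minus AbiR, with circles for probe sets, diamonds for the mean per gene and dashed lines at 1.5-fold. MXI1 (0.88) and MYC (1.03) are the 2 gene values past 1.5-fold, MXI1 in MDVR minus parental and MYC in MDVR minus AbiR, and the MXD1 probe sets spread from -0.91 to 0.46 in MDVR minus parental.

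MLX was lower in both resistant lines. Its 6 probe sets averaged -0.22 ± 0.18 in MDVR minus parental, with 5 of 6 lower, and -0.26 ± 0.18 in AbiR minus parental, with 6 of 6 lower (SD). A set of 4 carried the difference, with values between -0.38 and -0.27 in MDVR minus parental and between -0.48 and -0.32 in AbiR minus parental. The other 2 MLX probe sets (1570347_at and 231401_s_at) were near 0, at -0.06 and 0.07 in MDVR minus parental and at -0.02 and -0.05 in AbiR minus parental. Between MDVR and AbiR cells MLX differed by 0.04 ± 0.10. Of all genes, 17.3% were further down in MDVR and 11.8% in AbiR, so a difference of this size was common on these arrays. The MLX mean was past the largest difference of the spiked controls in AbiR minus parental and within it in MDVR minus parental.

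The E-box that MYC and MAX prefer is CACGTG, which reads the same on both strands. It was searched in promoter windows of 250 bases before to 50 bases after the annotated start from RefSeq (GRCh38.p14). A window was matched for 9 of the 10 members, and not for MYC. Of the 9, 3 hold the motif in a window, MLX, MNT and MXD4, beside 10.9% of 15842 protein-coding genes and 7.26% of all 35116 windows. The MLX window (chr17:42566850-42567149, plus strand) is shown whole, because most MLX probe sets were lower in both resistant lines, and the capitals mark the E-box, whose first base lies 50 bases before the start. For MNT (in chr17:2401011-2401310, minus strand, 193 bases before the start) and MXD4 (in chr4:2262060-2262359, minus strand, 238 bases before the start) the 30 bases around the motif are shown for comparison. None of the 3 windows of MXI1 holds these letters. A match to CACGTG describes the sequence only, and no binding was measured.
MLX: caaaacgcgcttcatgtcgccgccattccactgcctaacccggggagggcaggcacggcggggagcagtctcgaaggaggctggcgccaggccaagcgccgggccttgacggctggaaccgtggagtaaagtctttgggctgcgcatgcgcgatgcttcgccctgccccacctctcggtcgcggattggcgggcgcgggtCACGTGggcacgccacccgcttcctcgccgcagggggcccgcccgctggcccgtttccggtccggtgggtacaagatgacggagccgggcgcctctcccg
MNT: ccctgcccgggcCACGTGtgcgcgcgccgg
MXD4: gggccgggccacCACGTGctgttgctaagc

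The remaining partners of the network were close to parental cells. Of the other dimer partners, MGA, which pairs with MAX and represses, read 0.16 ± 0.44 in MDVR minus parental and 0.20 ± 0.17 in AbiR minus parental. MLXIP, the MLX partner of most tissues, read -0.08 ± 0.07 and -0.01 ± 0.14 in the same comparisons, and MLXIPL, the MLX partner of liver and fat, read 0.30 and 0.13 by 1 probe set. Among 11 measured coactivators and chromatin partners of MYC, 0 were past 1.5-fold in any of the 3 comparisons. Over all genes 4.81% were that much higher and 5.15% lower in MDVR minus parental, and 3.32% and 2.52% in AbiR minus parental. In MDVR minus AbiR the shares were 2.77% and 3.96%, so 0 of 11 is near these shares. The list medians were 0.01 in MDVR and -0.02 in AbiR against parental cells, and 0.07 between the resistant lines. They stood beside 0.04, -0.01 and 0.05 over all genes. The extremes in MDVR minus parental were ZBTB17, the MYC partner also named MIZ1, at 0.32 and WDR5, which anchors MYC on chromatin, at -0.29. In AbiR minus parental the lowest was RUVBL1, a helicase that MYC recruits, at -0.35. TRRAP, the scaffold of MYC-bound acetylases, read -0.23 ± 0.01 in MDVR and 0.07 ± 0.02 in AbiR minus parental, and BPTF, a chromatin remodeller, read 0.16 ± 0.27 and 0.09 ± 0.51. The highest in AbiR minus parental were EP400, another remodeller, at 0.12 ± 0.15 and CDK9, the kinase that releases paused polymerase, at 0.11 ± 0.11.

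The corepressor subunits that MXD proteins and MNT bring to DNA had 1 gene of 9 at least 1.5-fold lower in each resistant line against parental cells and none higher, beside 5.15% of all genes lower in MDVR and 2.52% in AbiR. That gene was SAP30, a subunit of the SIN3 complex, with -0.76 ± 0.54 in MDVR minus parental and -0.72 ± 0.37 in AbiR minus parental (SD, 4 probe sets). Its centred means were -0.19 in MDVR and -0.15 in AbiR cells, against 0.57 in parental cells. SAP18, another SIN3-associated protein, read -0.52 ± 0.20 in MDVR minus parental and 0.11 ± 0.21 in AbiR minus parental. It was the 1 gene of the list past 1.5-fold in MDVR minus AbiR (-0.63 ± 0.41), where 3.96% of all genes were that much lower. SIN3A, a scaffold of the complex, read -0.24 ± 0.41 in MDVR minus parental and -0.14 ± 0.17 in AbiR minus parental, and its paralog SIN3B read 0.04 ± 0.07 and 0.24 ± 0.14. Of the histone-binding and deacetylase subunits, HDAC1 read 0.36 in MDVR and 0.14 in AbiR minus parental, HDAC2 read -0.04 ± 0.24 and -0.32 ± 0.04, and RBBP7 read 0.09 and -0.05. The list medians were -0.08 in MDVR minus parental, -0.05 in AbiR minus parental and -0.04 in MDVR minus AbiR.

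Genes that control the stability of the MYC protein were more often below parental cells than above. In each line 8 of 11 were below (72.7%), beside 42.4% of all genes in MDVR and 52.4% in AbiR, and the list medians were -0.12 and -0.10, against 0.04 and -0.01 over all genes. Without the _s_at, _x_at and _a_at probe sets the AbiR median was 0.0012. SKP2, a ubiquitin ligase subunit that both degrades and activates MYC, read -0.61 ± 0.19 in MDVR minus parental and -0.89 ± 0.24 in AbiR minus parental (3 probe sets). CIP2A, which protects MYC from dephosphorylation by PP2A, read -0.67 ± 0.14 in MDVR and -0.55 ± 0.10 in AbiR. Both genes were past 1.5-fold in MDVR, and SKP2 alone was past it in AbiR. STUB1, a chaperone-linked ubiquitin ligase and the gene at the centre of the study, was lower in MDVR than in parental cells by all 3 of its probe sets, at -0.33 ± 0.02, and read -0.04 ± 0.01 in AbiR minus parental. Both STUB1 differences were within the largest of the spiked controls (0.35 in MDVR and 0.20 in AbiR), and the SD between probe sets is no error between cultures. HUWE1, another ubiquitin ligase of MYC, read 0.07 ± 0.20 and 0.09 ± 0.09 in MDVR and AbiR minus parental, and GSK3B, the kinase that marks MYC for degradation, read 0.06 ± 0.27 and 0.06 ± 0.31.

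Genes that MYC is known to induce were measured for 38 of 44 listed. In MDVR minus parental 25 of the 38 were below 0 (65.8%, beside 42.4% of all genes), with a median of -0.10. In AbiR minus parental 35 of the 38 were below 0 (92.1%, beside 52.4% of all genes), with a median of -0.27. In MDVR minus AbiR 30 of the 38 were above 0 (78.9%, beside 59.9% of all genes), with a median of 0.19. Most of these differences were small. Of the 38, 3 were at least 1.5-fold lower in MDVR than in parental cells, 2 were in AbiR, and 0 were past 1.5-fold in MDVR minus AbiR or higher in any comparison. Over all genes 5.15% were that much lower and 4.81% higher in MDVR minus parental, and 2.52% and 3.32% in AbiR minus parental. In MDVR minus AbiR 3.96% were that much lower and 2.77% higher. The counts of the list are too small to set apart from these shares. By its signs and medians the list as a whole was lower than the average gene in both resistant lines and, of the 2, nearer to parental cells in MDVR. Whether these values follow those of MYC was not tested.

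**Figure D3:**
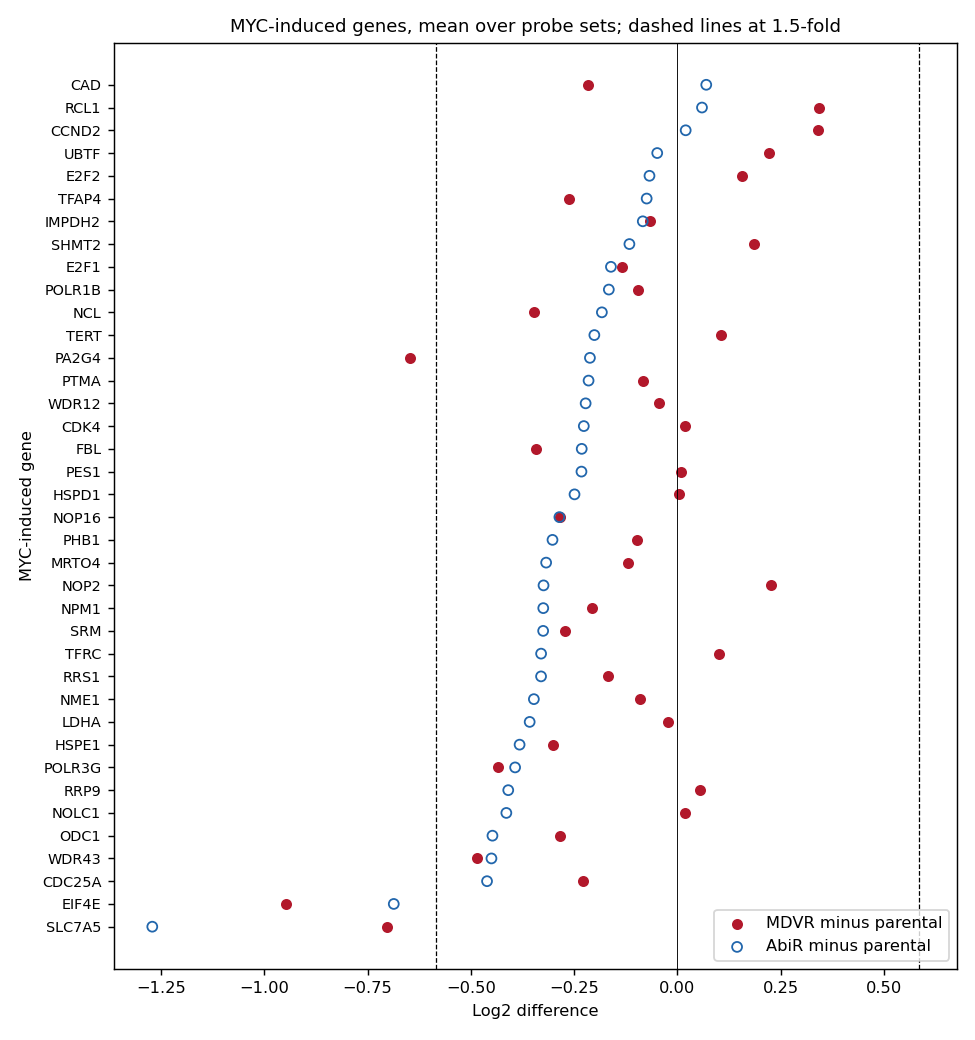
Log2 differences from C4-2B parental cells of the 38 measured MYC-induced genes in C4-2B MDVR (filled) and in C4-2B AbiR (open), sorted by the AbiR difference, with dashed lines at 1.5-fold. In AbiR 35 of the 38 lie below 0 and in MDVR 25 of the 38.

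By role, the 17 genes of ribosome assembly and the nucleolus had medians of -0.12 in MDVR minus parental and -0.29 in AbiR minus parental, with 11 and 16 of them below 0. Among them NPM1, the nucleolar chaperone nucleophosmin, read -0.21 ± 0.07 in MDVR and -0.32 ± 0.06 in AbiR, and FBL, the methylase of ribosomal RNA, read -0.34 and -0.23. PA2G4, a growth regulator of the nucleolus, was the third gene at least 1.5-fold lower in MDVR, at -0.65 ± 0.53, and RCL1, a ribosomal RNA processing factor, was the highest of the list there at 0.34 ± 0.35. The 9 genes of metabolism and transport had medians of -0.09 and -0.33, with 7 and 8 below 0. ODC1, the first enzyme of polyamine synthesis, read -0.28 in MDVR and -0.45 in AbiR, and LDHA, the lactate dehydrogenase of glycolysis, read -0.02 and -0.36. CAD, the enzyme that starts pyrimidine synthesis, read -0.22 ± 0.26 in MDVR and was the highest of the whole list in AbiR, at 0.07. The 5 cell cycle genes had medians of 0.02 and -0.16, and CCND2 (cyclin D2), the highest of these, read 0.34 ± 0.33 in MDVR and 0.02 ± 0.12 in AbiR. NPM1, FBL, PA2G4, ODC1 and LDHA were named, and the roles assigned, after the values were seen.

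A pair of MYC-induced genes was at least 1.5-fold lower in both resistant lines. EIF4E, the cap-binding factor that starts translation, had centred means of -0.51 in MDVR and -0.25 in AbiR cells, against 0.43 in parental cells, with differences from parental cells of -0.95 ± 0.63 and -0.69 ± 0.25 (SD, 5 probe sets). SLC7A5, the transporter that imports leucine and other large amino acids, had a centred value of 0.02 in MDVR and -0.54 in AbiR cells, against 0.73 in parental cells, by 1 probe set. It was 1.63-fold lower in MDVR and 2.41-fold lower in AbiR than in parental cells (-0.70 and -1.27), the lowest of the list in AbiR. Of the 36 listed genes with a promoter window, 18 hold CACGTG (50%, beside 10.9% of protein-coding genes). The EIF4E window (chr4:98929084-98929383, minus strand) holds it at 225 and at 72 bases before the start, and the SLC7A5 window (chr16:87869458-87869757, minus strand) at 130 bases before the start. These sites are shown with 12 bases on either side, with the motif in capitals, because both genes were below parental cells in both lines.
EIF4E, distal: ctacccatcggcCACGTGaccagtcctttt
EIF4E, proximal: ggacatatccgtCACGTGgccagaagctgg
SLC7A5: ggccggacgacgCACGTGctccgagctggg

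Of the measured MYC-induced genes, 31 have a promoter window. The 17 with CACGTG in the window had median differences of -0.09 in MDVR minus parental and -0.33 in AbiR minus parental, and the 14 without had -0.12 and -0.21. In AbiR 16 of the 17 with the motif and 13 of the 14 without were below 0. Most genes of both kinds were thus below parental cells in AbiR, and absence from this window says nothing of E-boxes elsewhere.

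Genes that MYC is known to repress had a few large differences among 10. In MDVR minus parental 3 were at least 1.5-fold higher and none lower, and in AbiR minus parental 1 was higher and 1 lower. Over all genes 4.81% were that much higher and 5.15% lower in MDVR, and 3.32% higher and 2.52% lower in AbiR. GADD45A, a stress-induced brake on the cell cycle, had centred values of 0.70 in MDVR and -0.23 in AbiR cells, against -0.90 in parental cells, and was 3.04-fold higher in MDVR and 1.59-fold higher in AbiR than in parental cells (1.60 and 0.67). CDKN1A, which encodes the cyclin-dependent kinase inhibitor p21, had centred values of 0.27 in MDVR and -0.27 in AbiR cells, against -0.78 in parental cells, with differences of 1.05 and 0.51. Both genes were thus highest in MDVR, where MYC was highest too, and above parental cells in AbiR, where MYC was lowest. Whether their values follow those of MYC was not tested. DDIT3, the stress factor CHOP, read 0.72 in MDVR minus parental and -0.21 in AbiR minus parental, and CDKN1B, which encodes the related inhibitor p27, read -0.10 and 0.07 in the same comparisons. CEBPA, a differentiation factor, read -0.11 and 0.06. GADD45A, CDKN1A, DDIT3, CDKN1B and CEBPA were read by 1 probe set each. THBS1, the secreted inhibitor of vessel growth, averaged -0.05 ± 0.61 in MDVR and -1.17 ± 1.78 in AbiR, and its 7 probe sets disagreed by more than the mean. The list medians were 0.11 in MDVR minus parental, 0.07 in AbiR minus parental and 0.15 in MDVR minus AbiR.

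Among 9 targets of MLX pairs, TXNIP stood highest. TXNIP, which restrains glucose uptake and is the best known target of MLX with MLXIP, had centred means of 0.02 in MDVR and -0.02 in AbiR cells, against -1.12 in parental cells. It was 2.21-fold higher in MDVR (1.14 ± 0.23) and 2.14-fold higher in AbiR (1.10 ± 0.05) than in parental cells, by 3 probe sets. ARRDC4, its relative and another MLX target, read -0.48 in MDVR and -0.18 in AbiR, so these related targets lay on opposite sides of parental cells. KLF10, a zinc finger repressor, read 0.75 in MDVR and 0.54 in AbiR. ARRDC4 and KLF10 were read by 1 probe set each. HK2, the hexokinase that starts glycolysis, read -0.46 ± 0.36 in MDVR and -0.88 ± 0.37 in AbiR, and PFKFB3, a glycolytic regulator, read 0.09 and -0.37. In all, 2 of the 9 were at least 1.5-fold higher and 0 lower in MDVR, and 1 was higher and 1 lower in AbiR, beside 4.81% of all genes higher and 5.15% lower in MDVR and 3.32% and 2.52% in AbiR. This list had a median of 0.07 in MDVR, with -0.12 for AbiR, and the MDVR median was -0.13 without the _s_at, _x_at and _a_at probe sets.

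The listed neighbours of MYC on the genome differed less between the resistant lines than MYC did. Of 10 genes listed around MYC, 0 were past 1.5-fold in any of the 3 comparisons. Over all genes 4.81% were that much higher and 5.15% lower in MDVR minus parental, and 3.32% and 2.52% in AbiR minus parental. In MDVR minus AbiR 2.77% of all genes were that much higher and 3.96% lower, so 0 of 10 is near these shares. The list median was 0.06 in MDVR minus parental, -0.13 in AbiR minus parental and 0.09 in MDVR minus AbiR. Over all genes the median was 0.04, -0.01 and 0.05. PVT1, the noncoding RNA gene next to MYC that is often amplified with it, read 0.37 in MDVR minus parental, 0.07 in AbiR minus parental and 0.30 in MDVR minus AbiR, by 1 probe set. ADCY8, an adenylate cyclase, had 0.35, -0.12 and 0.47, the largest MDVR minus AbiR difference of the list, beside 1.03 for MYC. The lowest in MDVR minus parental were LRATD2 at -0.29 ± 0.23 and CYRIB at -0.22 ± 0.43. In AbiR minus parental CYRIB at -0.29 ± 0.41 and ASAP1 at -0.25 ± 0.11 were lowest, and TRIB1 at 0.17 ± 0.17 and NSMCE2 at 0.17 were highest. DNA copy number was not measured.

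Proliferation, cell type markers and RNA quality were read beside these results. All 13 of 13 proliferation markers were below parental cells in MDVR (median -0.26) and 11 of 13 in AbiR (median -0.25), beside 42.4% and 52.4% of all genes, and CCNB1, cyclin B1, was the only 1 past 1.5-fold in any comparison, at -0.69 ± 0.29 in MDVR minus parental. TOP2A, the topoisomerase of dividing cells, read -0.50 ± 0.20 in MDVR and 0.05 ± 0.20 in AbiR minus parental, and MKI67 read -0.28 ± 0.37 and 0.16 ± 0.11. The mitotic kinase CDK1 read -0.19 ± 0.15 and -0.58 ± 0.16, and of the replicative helicase MCM3 read -0.40 and -0.39, MCM4 -0.06 ± 0.33 and -0.27 ± 0.04, and MCM2 -0.01 and -0.25. Between MDVR and AbiR their median was -0.01, while that of the MYC-induced genes was 0.19. KLK3, which encodes prostate-specific antigen and depends on the androgen receptor, averaged -4.07 ± 3.23 in MDVR minus parental and -3.17 ± 2.36 in AbiR minus parental (SD, 3 probe sets). In MDVR 3 of 7 luminal prostate markers were at least 1.5-fold below parental cells, and in AbiR 2 of 7 were, beside 5.15% and 2.52% of all genes. In each line 3 of 7 were above parental cells, and the list median was -0.10 in both. HOXB13, a prostate lineage factor, read 0.37 ± 0.44 in MDVR and 0.17 ± 0.05 in AbiR, and KRT8, a luminal keratin, read 0.32 and 0.30. Markers of basal, stromal, endothelial, blood and neuroendocrine cells had list medians between -0.25 and 0.16 in either line minus parental. In these lists 0 genes were past 1.5-fold, which for so few genes is near the shares of all genes given above. For ACTB the 3′ probe set minus the 5′ probe set differed by -0.22 in MDVR minus parental and by -0.12 in AbiR minus parental, and for GAPDH by -0.05 and 0.06. The part of cell division, of the androgen programme and of RNA quality in the values of the network was not tested.

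**Figure D4:**
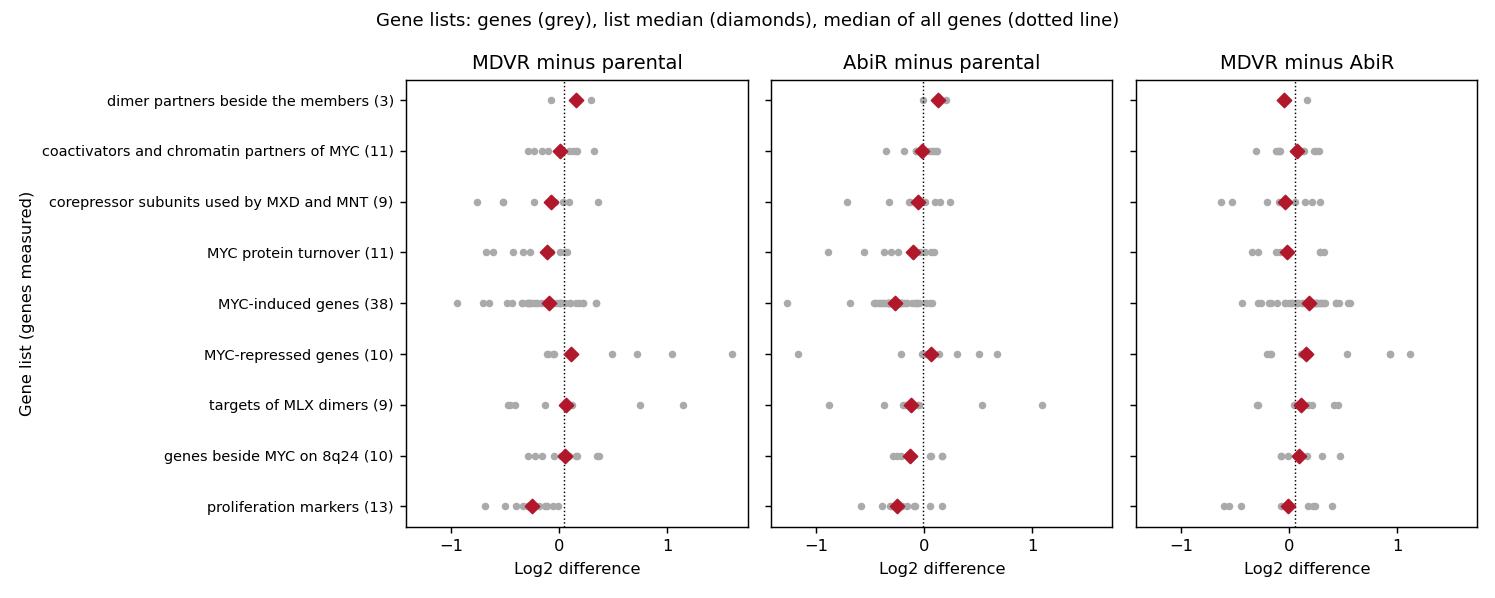
Log2 differences of the genes of 9 lists (grey) with the list medians (diamonds) and the median over all genes (dotted line), 1 panel for each resistant line against parental cells and 1 for MDVR minus AbiR. The MYC-induced genes stand at -0.10, -0.27 and 0.19 and the proliferation markers at -0.26, -0.25 and -0.01.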

How the data were processed

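Total RNA of C4-2B MDVR, C4-2B AbiR and C4-2B parental cells was hybridised to 1 Affymetrix HG-U133 Plus 2.0 array each. Per the submitters' processing notes the authors used RMA, with no version given. The deposited values are log2 and signed, and appear centred per probe set on the median of 4 arrays, since 53.4% of probe sets hold a mirrored pair (tolerance 2e-06). A further array is not analysed here. The column medians were 0.03 in MDVR, -0.01 in AbiR and 0 in parental cells.

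Probe sets were named through the platform annotation (41097 with 1 symbol, of which 99.9% were matched to RefSeq by gene ID, 1801 with several and 11721 with none). A gene value is the mean over probe sets with 1 symbol. Differences were computed in Python 3.11.15 with pandas 2.3.3 on the deposited scale and checked on simulated data. With 1 array a group no test and no p was possible, and the number of arrays limits the precision. Thresholds of 1.5-fold and 2-fold describe size only. Named genes are all members, the 2 highest and 2 lowest of each list in each resistant line, all 3 dimer partners, and STUB1. Others were named after their values were seen. The 9 lists hold 124 genes, of which 114 were measured. The members and lists were chosen with earlier results of these data known. For scaling and gene summary 6 alternatives, and a 2-fold threshold, were tried.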

Additional observations from a re-analysis of the deposited data

Results flagged for a closer look

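Among the members and all measured list and marker genes, 9 genes lay above parental cells in 1 resistant line and below in the other, each by more than 1 SD of the spiked controls. The share of all genes that meet this rule was not counted. Only MYC and DDIT3 were past the largest difference of the spiked controls in both lines (0.35 in MDVR and 0.20 in AbiR). Both differences use the same parental array, and with 1 array a line the difference between the resistant lines was not tested. MYC was 0.50 in MDVR minus parental and -0.53 in AbiR minus parental, and 1.03 in MDVR minus AbiR. DDIT3, listed as repressed by MYC, was 0.72 and -0.21, and 0.93 in MDVR minus AbiR. ADCY8, a neighbour of MYC, was 0.35 and -0.12, and 0.47 in MDVR minus AbiR. SAP18, a SIN3-associated protein, was -0.52 and 0.11, and -0.63 in MDVR minus AbiR. MKI67, the Ki-67 proliferation antigen, was -0.28 and 0.16, and -0.45 in MDVR minus AbiR. NOP2, a ribosomal RNA methylase listed as induced by MYC, was 0.23 and -0.32, and 0.55 in MDVR minus AbiR. SHMT2, the mitochondrial serine hydroxymethyltransferase on the same list, was 0.18 and -0.12, and 0.30 in MDVR minus AbiR. Of the luminal prostate markers, FOXA1 was -0.63 and 0.13, and -0.76 in MDVR minus AbiR, and FOLH1 was 0.21 and -0.13, and 0.34 in MDVR minus AbiR.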

How the results depend on the processing

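No paired analysis was possible because each line has 1 array. Each median and count was recomputed under 6 alternatives, and the counts of the main setting also at 2-fold. Of 201 values, 178 stayed within the spread or within 1.5 times the count, and 23 moved. A change of sign was counted only for values past 1.5-fold, which no median reached. Several medians near 0 did change sign. The coactivator median in MDVR minus parental kept its sign in 3 of 6 alternatives and ranged from -0.10 to 0.12. At 2-fold the count of members in MDVR minus parental was 0. With arrays centred on the hybridization controls the count in AbiR minus parental was 1, through MYC at -0.63. Without probe sets of suffix _s_at, _x_at or _a_at, which removes MYC and MXD3, the count in MDVR minus AbiR was 0 and the member median in MDVR minus parental was -0.064. The medians then became -0.17 in MDVR minus parental and -0.28 in MDVR minus AbiR for dimer partners, -0.13 in MDVR minus parental for MLX targets, 0.0012 in AbiR minus parental for MYC turnover, and -0.073 and 0.085 in MDVR minus AbiR for coactivators and corepressors. Adding probe sets of several genes gave -0.27 for MYC turnover in MDVR minus parental. With the probe set of largest SD, the member counts were 2 in MDVR minus parental, 1 in AbiR minus parental and 2 in MDVR minus AbiR, where the member median was 0.20. Medians in MDVR minus parental were then 0.30 for dimer partners, -0.34 for MYC turnover and 0.26 for MYC-repressed genes, and in MDVR minus AbiR 0.17 for dimer partners, 0.30 for MYC-repressed genes, -0.083 for coactivators, -0.31 for corepressors and 0.28 for MLX targets. The cause of these moves was not tested, beyond the probe sets each choice removes or adds.

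MYC ranged over its alternatives from 0.43 to 0.50 in MDVR minus parental, from -0.63 to -0.53 in AbiR minus parental and from 1.0 to 1.06 in MDVR minus AbiR. MXI1 ranged from 0.82 to 0.88, from 0.40 to 0.50 and from 0.36 to 0.42. The median of the MYC-induced genes ranged from -0.18 to -0.09, from -0.36 to -0.26 and from 0.11 to 0.21. Taken singly, an alternative chosen after seeing the data, 23 of 84 probe-set values of the members moved beyond the gene's spread. Every value is limited by 1 array a line, by centring that is inferred and not stated, and by an unknown signal over background. Of the members, MYC, MXI1 and MXD3 rest on 1 probe set each. Several list genes do too, among them GADD45A, CDKN1A and DDIT3.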
